A study of Homo sapiens with 20 samples.

Results

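Hepatocytes take drugs and endogenous organic ions up from the blood through solute carriers and pass them, often after conjugation, into bile or back to blood through ATP-binding cassette (ABC) exporters. The genes described here are 9 such transporters, namely the organic anion transporting polypeptides SLCO1B1, SLCO1B3 and SLCO2B1, the SLC22 carriers SLC22A3, SLC22A7 and SLC22A9, and the exporters ABCC2, ABCC3 and ABCB1. Every array probe whose RefSeq accession maps to these symbols was taken, which gave 12 of 42405 probes, with 2 probes each for SLC22A7, ABCC3 and ABCB1. All 9 genes and all 12 probes passed the filter on dim probes, and the 9 are among 22221 genes tested.

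HepaRG is a human hepatoma line whose bipotent progenitors give hepatocyte-like and biliary-like cells, so that the differentiated samples are mixtures of both, and every sample comes from this single line. The cells were grown in William's E medium with serum, insulin and hydrocortisone, and their RNA was read on 20 one-color Agilent arrays, 4 per condition. Compared were progenitors at day 4 (D4), differentiating cells at day 15 (D15), both without DMSO, cells kept without DMSO to day 30 (D30 − DMSO), cells given 2% DMSO from day 15 to day 30 (D30 + DMSO), and the latter after 4 further days without DMSO (D34 ± DMSO). The labels give the 4 arrays of a condition as independent experiments.

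Levels are log2 signals relative to the 75th percentile of the array, which is 0. Values of different probes were not compared with each other, except for the distance between the 2 probes of a gene within an array. Summed levels of cell type markers add the signals of different probes, so the brightest genes weigh most in them. A gene was called at a limma adjusted p (Benjamini-Hochberg over all genes) below 0.005 with a change over 2-fold, and n = 4 arrays per condition throughout. Between 61.1% and 74.2% of the spots of an array were well above background by the scanner software, and r over genes was 0.955 to 0.992 for pairs of replicates. The arrays lie on 4 slides, and deviations from the condition mean had a median r over genes of 0.38 for pairs on one slide and of -0.17 for other pairs. Slide 4 held every replicate 4, D15 replicate 3 and D30 + DMSO replicate 3. All 10 hepatocyte markers listed, with ALB and APOB among them, were well above background on every array, as were 6 of 8 biliary markers.

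The liver uptake carriers are known to depend on hepatocyte nuclear factors, and the promoters of 3 of them are shown. The first pair are close relatives whose measured levels went opposite ways from D4 to D15, while the third followed the first. SLCO1B3 passed the filter on dim probes only through D4, where it was high, so its fall is not independent of that filter. Each line holds the 250 bases before a RefSeq gene start of SLCO1B1 (chr12:21130944-21131193), SLCO1B3 (chr12:20810455-20810704) and 1 of 2 starts of SLCO2B1 (chr11:75159582-75159831) on the plus strand of GRCh38.p14, with the letters GTTAAT, the core of a hepatocyte nuclear factor site, or CAAAGTCCA, an HNF4 motif, in capitals on either strand.
SLCO1B1: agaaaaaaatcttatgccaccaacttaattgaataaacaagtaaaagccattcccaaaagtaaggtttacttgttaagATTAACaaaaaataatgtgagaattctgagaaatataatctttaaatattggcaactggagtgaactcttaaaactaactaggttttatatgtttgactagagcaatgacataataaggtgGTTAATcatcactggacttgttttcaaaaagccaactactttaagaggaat
SLCO1B3: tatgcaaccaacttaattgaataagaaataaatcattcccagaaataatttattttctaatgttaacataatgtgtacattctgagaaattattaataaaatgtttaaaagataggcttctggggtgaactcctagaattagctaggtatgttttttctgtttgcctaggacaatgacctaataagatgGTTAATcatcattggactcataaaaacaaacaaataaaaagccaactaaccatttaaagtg
SLCO2B1: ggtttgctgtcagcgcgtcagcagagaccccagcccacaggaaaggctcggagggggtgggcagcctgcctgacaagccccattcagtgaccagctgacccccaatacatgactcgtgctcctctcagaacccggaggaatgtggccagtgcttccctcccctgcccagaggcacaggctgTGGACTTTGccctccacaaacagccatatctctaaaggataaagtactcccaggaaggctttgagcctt
GTTAAT stood 51 bases before the start of SLCO1B1 and 61 bases before that of SLCO1B3, and SLCO1B1 held it a second time, on the other strand, 172 bases before the start. Over the 223 positions that a global alignment set side by side without a gap, the SLCO1B1 and SLCO1B3 sequences were identical at 187 (83.9%). The HNF4 letters stood 69 bases before this start of SLCO2B1, while the window of its other start (chr11:75150857-75151106) held neither motif. Of all 35116 promoters in the table, 6.23% held GTTAAT and 0.325% held CAAAGTCCA. The table gave promoters for 6 of the 9 genes, and neither motif was found in those of SLC22A7, ABCC2 and ABCB1. These matches describe letters only.

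The largest changes came before any DMSO was added, as shown in the plot of levels by array. Between D4 and D15, 6 of the 9 transporters were called, against 9.5% of all genes tested, with 5 higher (5.68% of all genes) and 1 lower (3.82%). The higher ones were SLCO1B1, SLCO2B1, SLC22A7, SLC22A9 and ABCB1, and the lower one was SLCO1B3, which passed the filter on dim probes only through D4. The levels did not overlap for 7 of the 9 genes, against 24.1% of all genes, and the median change of the 9 was 1.88 on the log2 scale, against 0.02 over all genes. Within each of the 3 slides that held both conditions, the 6 genes moved in these directions. After normexp background correction together with quantile normalization the log2 changes were smaller, at 4.19 for SLCO2B1, 2.34 for SLCO1B1, 1.87 for ABCB1, 1.46 for SLC22A9, 1.11 for SLC22A7 and -0.57 for SLCO1B3, the last no longer called.

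**Figure D1:**
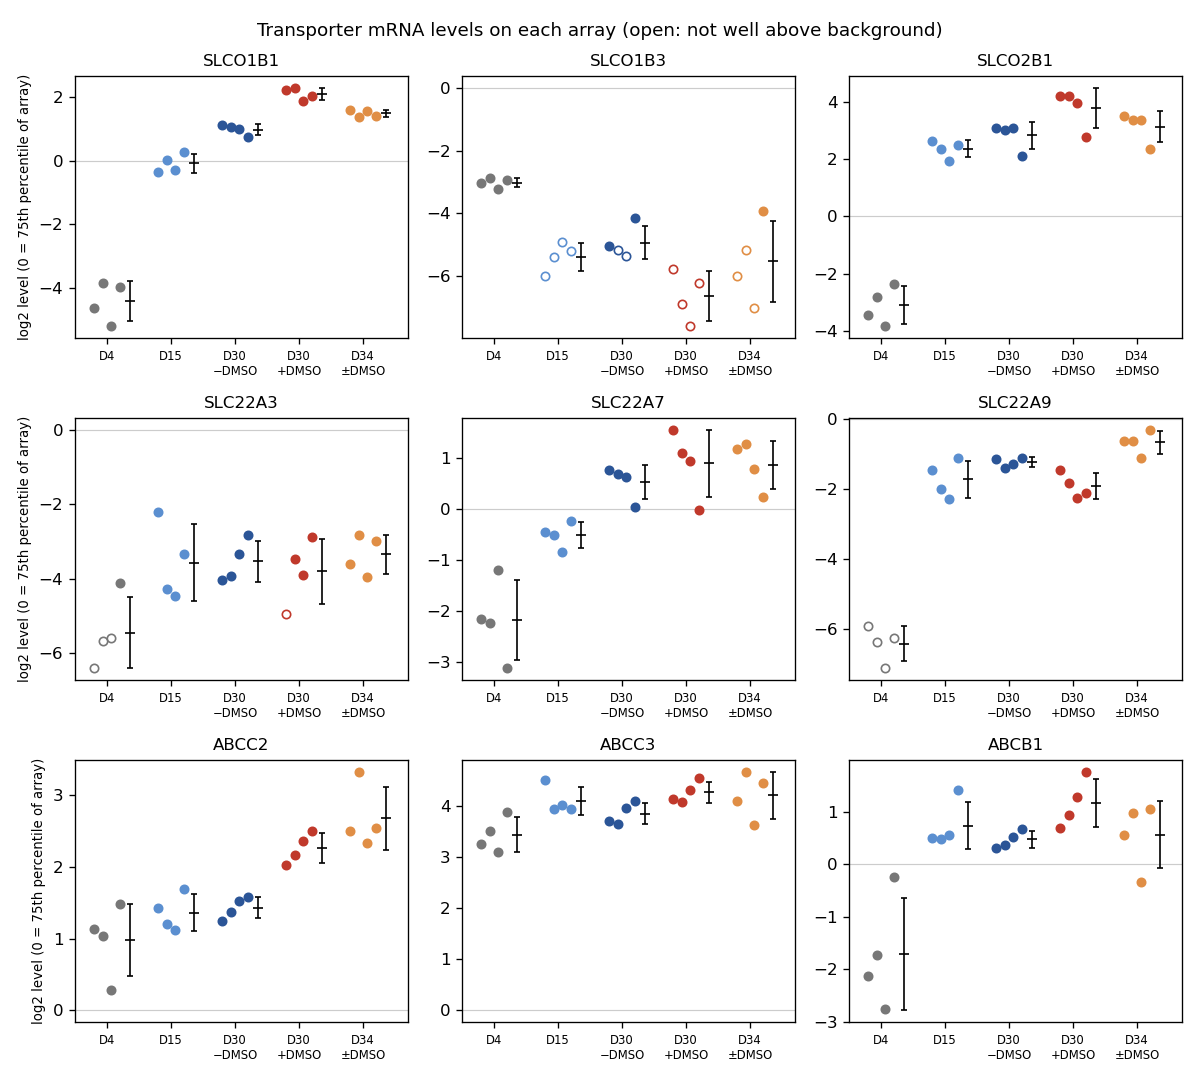
Log2 level of each transporter on each of the 20 arrays by condition, where 0 is the 75th percentile of the array, filled points are well above background, open points are not, and black bars give the mean ± SD of 4 arrays. SLCO1B1, SLCO2B1 and SLC22A9 lie far lower at D4 than in any later condition, while SLCO1B3 is highest at D4.

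SLCO2B1 encodes OATP2B1, an uptake carrier of sulfated steroids and many drugs. Its levels at D4 were -3.43, -2.80, -3.83 and -2.34, and at D15 they were 2.63, 2.35, 1.94 and 2.50. All D15 arrays were thus far above all D4 arrays, a rise of 5.46 ± 0.37 (SE) on the log2 scale or 44.0-fold (limma adjusted p = 3.55e-09).

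SLCO1B1 encodes OATP1B1, the sinusoidal carrier of bilirubin and statins. It was measured at -4.64, -3.86, -5.22 and -3.97 at D4 and at -0.35, 0.03, -0.30 and 0.28 at D15. The rise was 20.2-fold (log2 4.34 ± 0.23 SE, limma adjusted p = 3.47e-10), with no overlap. Across the 20 arrays SLCO1B1 and SLCO2B1 followed each other with r = 0.98, which is given as a description, since all arrays of a condition share its culture time and treatment.

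SLC22A9 encodes OAT7, a liver carrier of sulfate conjugates. No D4 array was well above background for it, while the D15 levels were -1.47, -2.01, -2.30 and -1.12. Taking the dimmest well-detected signal of each D4 array as its limit, the rise was at least 17.0-fold (measured means -1.72 and -6.42, limma adjusted p = 6.56e-10).

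ABCB1 encodes P-glycoprotein, the exporter of bulky hydrophobic drugs at the canalicular membrane. Its brighter probe gave -2.14, -1.72, -2.76 and -0.25 at D4 and 0.49, 0.47, 0.56 and 1.40 at D15. The arrays did not overlap although D4 replicate 4 stood above the other D4 arrays, and the rise was 5.47-fold (log2 2.45 ± 0.42 SE, limma adjusted p = 0.000189). The second probe of ABCB1 rose by 2.36 ± 0.23 (adjusted p = 2.61e-07). The call for the brighter probe was lost when only the D4 and D15 arrays were fitted (limma adjusted p = 0.00616) and in the methods' t-test (0.0368 after Benjamini-Hochberg adjustment).

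SLC22A7 encodes OAT2, which carries organic anions and cyclic nucleotides. Its brighter probe gave -2.15, -2.23, -1.19 and -3.12 at D4 and -0.45, -0.50, -0.84 and -0.23 at D15, and the second probe gave -4.65, -5.07, -5.01 and -4.92 at D4 and -0.26, -0.75, -0.97 and 0.12 at D15. Both probes rose without overlap, but by 3.18-fold (log2 1.67 ± 0.36 SE, limma adjusted p = 0.00174) and 21.8-fold (log2 4.45 ± 0.29 SE, limma adjusted p = 2.69e-09) respectively. The second probe was well above background on 1 of 4 D4 arrays. Leaving out any of D4 replicates 1, 2 or 4 or D15 replicates 1, 2 or 4 cost the brighter probe its call (adjusted p at most 0.00729), as did a fit of the compared arrays only (limma adjusted p = 0.00962) and the methods' t-test (0.0434 after Benjamini-Hochberg adjustment).

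SLCO1B3 encodes OATP1B3, a bile acid and drug carrier of the mature liver, and it went the other way. The D4 levels were -3.02, -2.88, -3.23 and -2.93, and no D15 array was well above background. The fall was at least 4.42-fold (measured means -3.01 and -5.38, limma adjusted p = 0.00139). SLCO1B3 was in general dim, well above background on 4 arrays at D4, 2 at D30 − DMSO, 1 at D34 ± DMSO and 0 at D15 and D30 + DMSO. It thus passed the filter on dim probes only through D4, the condition where it was high. The filter therefore favored a fall from D4, and the call is not independent of it. The call was lost without D15 replicate 1 (adjusted p = 0.00656) and after quantile normalization (adjusted p = 0.00527). Whether the probe also binds mRNA of its close relatives was not tested.

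The other 3 transporters were not called. SLC22A3, the organic cation transporter OCT3, was well above background on 1 D4 array and on all D15 arrays, at -2.22, -4.27, -4.46 and -3.32 (log2 change 1.88 ± 0.53 SE, limma adjusted p = 0.0144). Without D4 replicate 4 it passed the threshold (log2 change 2.32, adjusted p = 0.00291). ABCC3, the basolateral exporter MRP3, was bright already at D4, at 3.25, 3.50, 3.09 and 3.88, and lay at 4.50, 3.93, 4.01 and 3.93 at D15 (log2 change 0.66 ± 0.22 SE, limma adjusted p = 0.0344), with no overlap. ABCC2, the canalicular exporter MRP2 of conjugated bilirubin, gave 1.13, 1.04, 0.28 and 1.48 at D4 and 1.43, 1.20, 1.11 and 1.69 at D15, which overlapped (log2 change 0.38 ± 0.24 SE, limma adjusted p = 0.302).

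Cell type markers moved with this step. The summed level of the 10 hepatocyte markers, as a multiple of the 75th percentile, ran from 370 to 765 at D4 and from 2834 to 4307 at D15, and all 10 were called higher. All 8 proliferation markers, MKI67 among them, were called lower, with summed levels of 14.9 to 23.5 at D4 and 1.49 to 4.07 at D15. Summed levels of the 8 biliary markers were 249 to 421 at D4 and 197 to 272 at D15, and 1 of 6 tested, SPP1, was called higher. Of the markers of other cell types that passed the filter, 2 of 4 mesenchymal genes were called lower, 1 of 3 leukocyte genes, CD68, was called higher, and 0 of 2 endothelial genes were called. More cells of a type and more mRNA per cell cannot be told apart in these bulk samples.

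**Figure D2:**
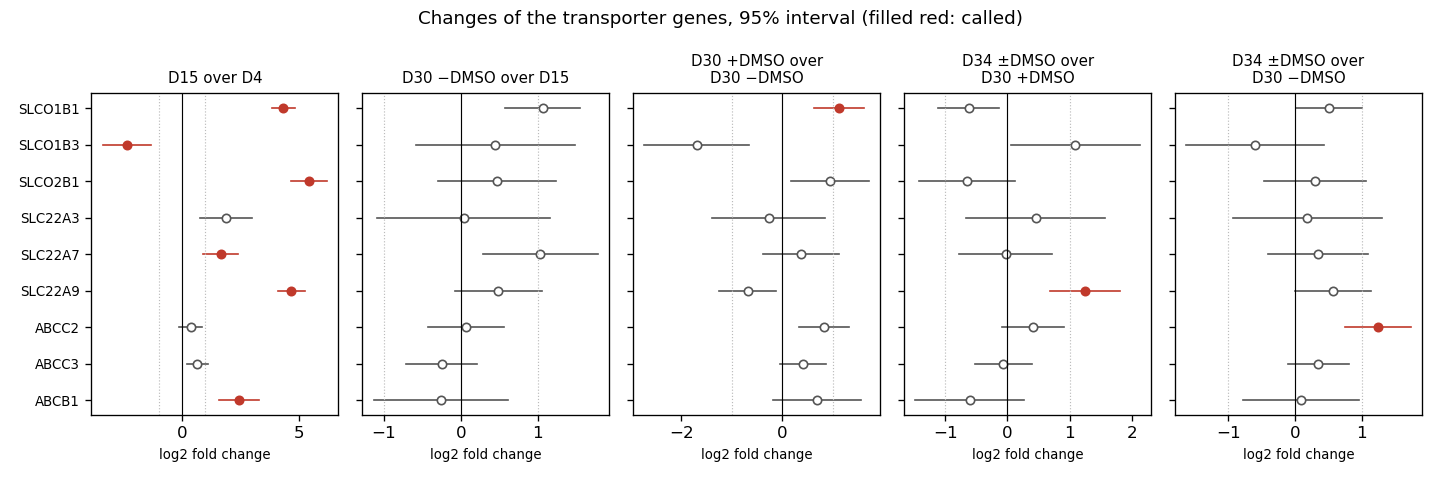
Log2 fold change of each transporter in the 5 comparisons with its 95% interval from limma, where filled red points are called and dotted lines mark 2-fold. The D15 over D4 panel holds 6 called genes, the D30 − DMSO over D15 panel none and each other panel 1.

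Culture without DMSO from D15 to D30 gave 0 of the 9 called by limma, against 0.0135% of all genes. At an adjusted p below 0.05 there were also 0, against 0.045% of all genes, and 0 by the methods' t-test, while 2 had an unadjusted p below 0.05. SLCO1B1 gave 1.13, 1.06, 1.00 and 0.74 at D30 − DMSO, all above its D15 arrays (log2 difference 1.07 ± 0.23 SE, limma adjusted p = 0.239). SLC22A7 gave 0.77, 0.70, 0.63 and 0.05, also all above D15 (log2 difference 1.04 ± 0.36 SE, limma adjusted p = 1.00). For the other 7 genes the levels at both times overlapped, and non-overlap was seen for 2.18% of all genes.

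DMSO from D15 to D30 was compared with the same time without it to ask which transporters respond to the solvent itself. Of the 9 transporters, 1 was called, SLCO1B1, against 5.87% of all genes, and it was higher with DMSO, as were 1.73% of all genes. The measured values did not overlap for 5 genes, SLCO1B1, ABCC2 and ABCB1 higher and SLCO1B3 and SLC22A9 lower, against 24.5% of all genes. With spots not well above background taken as upper limits only, which have no order, SLCO1B3 was not separated and the other 4 were, against 23.8% of all genes. At an adjusted p below 0.05 without a limit on the fold, SLCO1B1, ABCC2 and SLCO1B3 passed, against 18.1% of all genes. Of these, SLCO1B3 was well above background on 0 D30 + DMSO arrays and 2 D30 − DMSO arrays, so its passing rests largely on undetected spots.

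SLCO1B1 reached 2.23, 2.29, 1.89 and 2.04 at D30 + DMSO, every array above the highest D30 − DMSO array. The rise was 2.19-fold (log2 1.13 ± 0.23 SE, limma adjusted p = 0.00186), and within the 2 slides that held both conditions it was 1.13 and 1.23. The call was lost without D30 − DMSO replicate 3 or 4 or D30 + DMSO replicate 1 or 2 (adjusted p at most 0.00809) and without slide 4 (1.20, adjusted p = 0.0230).

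SLCO2B1 gave 4.21, 4.21, 3.95 and 2.75 with DMSO and 3.09, 3.00, 3.09 and 2.11 without. Replicate 4 was the lowest array of both conditions, so the groups overlapped (log2 difference 0.96 ± 0.37 SE, limma adjusted p = 0.0824), while the differences within the 2 slides were 1.12 and 1.24.

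ABCC2 lay at 2.02, 2.17, 2.36 and 2.50 with DMSO and at 1.25, 1.37, 1.52 and 1.58 without. No arrays overlapped, and the difference was 1.78-fold (log2 0.83 ± 0.24 SE, limma adjusted p = 0.0184), with 0.84 and 0.85 within the 2 slides. The brighter ABCB1 probe gave 0.69, 0.94, 1.28 and 1.76 with DMSO and 0.32, 0.36, 0.52 and 0.67 without, a difference of 0.70 ± 0.42 (SE, limma adjusted p = 0.301).

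SLCO1B3 and SLC22A9 had lower measured values with DMSO. For SLCO1B3, no D30 + DMSO array and 2 of 4 D30 − DMSO arrays were well above background (measured means -6.62 and -4.93, limma adjusted p = 0.0215). With undetected arrays in both conditions, no lower limit of the fold can be given. For SLC22A9, the arrays gave -1.45, -1.83, -2.26 and -2.12 with DMSO and -1.13, -1.41, -1.28 and -1.11 without (log2 difference -0.68 ± 0.27 SE, limma adjusted p = 0.0952). SLC22A7 (log2 difference 0.37, adjusted p = 0.587) and SLC22A3 (-0.27, 95% interval -1.39 to 0.85) overlapped between both conditions.

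After 4 days without DMSO, D34 ± DMSO was compared with D30 + DMSO, a comparison that shares the D30 + DMSO arrays with the one above. No culture was kept with DMSO to D34, so removal and 4 more days of culture cannot be told apart. Here 1 of the 9 transporters was called, SLC22A9, against 7.05% of all genes, and it was higher after removal, as were 5.08% of all genes. Its levels at D34 ± DMSO were -0.63, -0.62, -1.10 and -0.31, all above every D30 + DMSO array. The rise was 2.38-fold (log2 1.25 ± 0.27 SE, limma adjusted p = 0.00236), and it was lost without D30 + DMSO replicate 2, 3 or 4 or D34 ± DMSO replicate 1, 2 or 4 (adjusted p at most 0.0116) and without slide 4 (0.86, adjusted p = 0.0964).

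SLCO1B1 gave 1.61, 1.39, 1.57 and 1.40 after removal, all below the D30 + DMSO arrays (log2 difference -0.62 ± 0.23 SE, limma adjusted p = 0.0687), and it was, beside SLC22A9, the other member without overlap, against 22.8% of all genes. SLCO2B1 lay at 3.48, 3.35, 3.35 and 2.34 and overlapped (log2 difference -0.65 ± 0.37 SE, limma adjusted p = 0.251). For ABCC2, whose 4 arrays gave 2.50, 3.32, 2.34 and 2.54, removal was not followed by a lower level (log2 difference 0.41, 95% interval -0.08 to 0.91, adjusted p = 0.260). ABCB1 gave 0.55, 0.98, -0.34 and 1.06 with its brighter probe (log2 difference -0.61, adjusted p = 0.370). SLCO1B3, well above background on 1 D34 ± DMSO array and 0 D30 + DMSO arrays, was not called (adjusted p = 0.135), nor were SLC22A3 (log2 difference 0.46, adjusted p = 0.653) and SLC22A7 (-0.03, adjusted p = 0.977). ABCC3, read by its brighter probe, was the one member with a coefficient of variation under 30% in both conditions and a mean ratio under 1.3, as were 37.4% of all genes.

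Proliferation markers moved with removal: all 8 were called higher, and their summed level was 1.12 to 3.12 at D30 + DMSO and 13.6 to 35.5 at D34 ± DMSO. The summed hepatocyte marker level was 3849 to 6497 and 3451 to 4299 in these conditions, 3644 to 3800 at D30 − DMSO, and none of the 10 was called by DMSO addition or removal. Of 6 biliary markers tested, 1 was called higher and 1 lower in each of these 2 comparisons. SOX9 rose 2.47-fold on addition and fell by 2.07 on the log2 scale on removal. SPP1 had a log2 change of -1.78 on addition and rose 4.73-fold on removal. The part of these marker changes in the transporter values was not tested.

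Cells after removal were also set against cells that never had DMSO. The former were also older in culture, at D34 against D30, so past DMSO and culture time cannot be told apart. ABCC2 was the 1 member called between D34 ± DMSO and D30 − DMSO, against 1.5% of all genes (1.31% higher), 2.37-fold higher (log2 1.24 ± 0.24 SE, limma adjusted p = 0.00308) and above D30 − DMSO on every array. It passed the threshold no longer without D34 ± DMSO replicate 1, 2 or 4 or any D30 − DMSO array (adjusted p at most 0.0153), nor without slide 4 (1.34, adjusted p = 0.0163). SLCO1B1 (0.51, adjusted p = 0.316) and SLC22A9 (0.57, adjusted p = 0.349) were also above D30 − DMSO on every array, and 11.6% of all genes did not overlap in either direction.

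The probe pairs show where a gene's value depended on the probe. For ABCC3 the second probe, designed on another transcript record, gave 2.23, 2.26, 2.28 and 2.30 at D30 − DMSO, 0.79, 0.74, 0.84 and 0.53 at D30 + DMSO, and 2.09, 1.90, 2.28 and 1.90 at D34 ± DMSO. Every D30 + DMSO array was thus more than a log2 unit below every D30 − DMSO array and every D34 ± DMSO array. The fall with DMSO was 2.92-fold (log2 -1.54 ± 0.12 SE, limma adjusted p = 8.44e-08) and the rise after removal 2.50-fold (log2 1.32 ± 0.12 SE, limma adjusted p = 3.40e-07), against 5.76% and 6.94% of all probes called. Both calls held without any single array. The brighter ABCC3 probe gave 3.70, 3.64, 3.96 and 4.09, then 4.14, 4.08, 4.30 and 4.54, then 4.08, 4.66, 3.61 and 4.44, and was called in neither comparison (limma adjusted p = 0.227 and 0.899). The distance between both probes within an array grew by 1.96 with DMSO and shrank by 1.38 after removal (exact permutation test, two-sided p = 0.0286 each, the smallest that 4 against 4 arrays allow, and 0.107 after adjustment over 15 such tests). This pair was singled out after its values were seen.

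**Figure D3:**
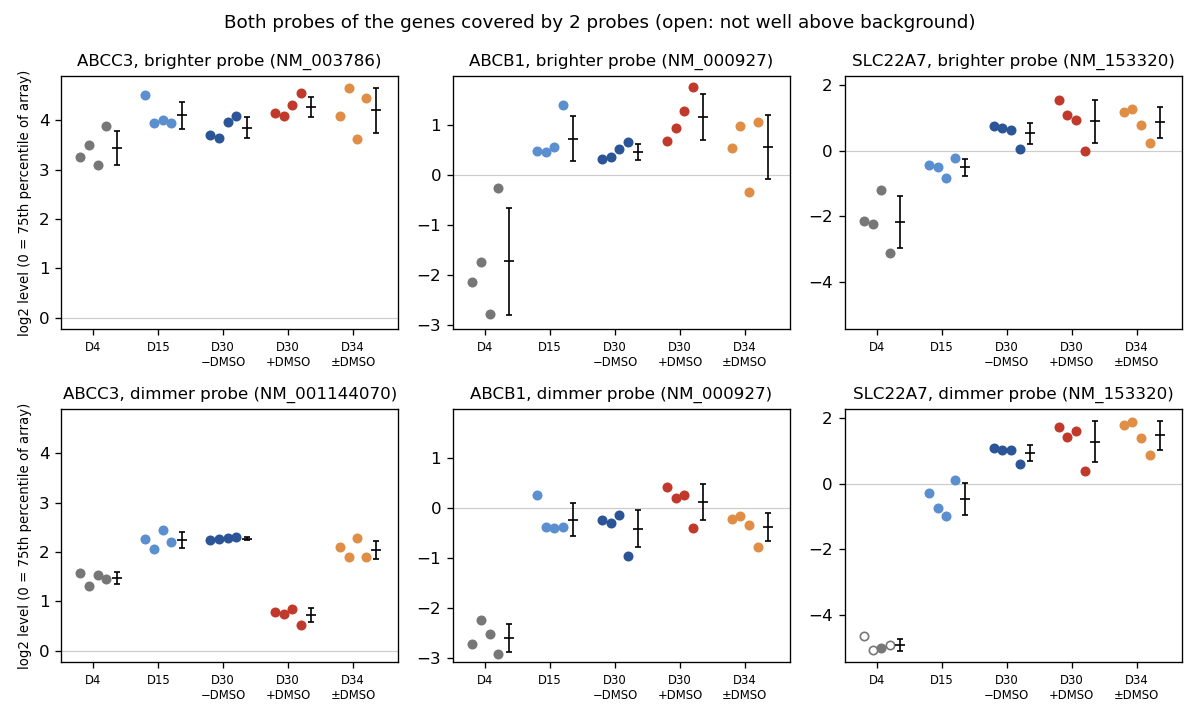
Log2 level of both probes of ABCC3, ABCB1 and SLC22A7 on each array, with the brighter probe in the upper row, the other in the lower row, 1 scale per gene, open points not well above background and black bars for the mean ± SD of 4 arrays. The second ABCC3 probe drops to 0.53 to 0.84 at D30 + DMSO while the brighter probe stays between 4.08 and 4.54.

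The ABCB1 probes differed less, with log2 differences of 0.70 and 0.53 with DMSO and of -0.61 and -0.49 after removal for the brighter and the second probe, none called. For SLC22A7, the log2 changes with DMSO were 0.37 and 0.35, whereas those from D4 to D15 lay apart, as given above.

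Over all 5 conditions, limma's F-test (Bonferroni-adjusted p below 0.001 and over 3-fold between the extreme means) called 3 of the 9, against 5.31% of all genes. SLCO2B1 spanned 118-fold (limma adjusted p = 2.83e-08), SLCO1B1 92.8-fold (limma adjusted p = 3.53e-11) and SLC22A9, not detected at D4, at least 35.4-fold (limma adjusted p = 4.35e-09). SLC22A7 missed this threshold (8.42-fold, limma adjusted p = 0.00521), as did the other 5, whose fold spans ran from 1.78 for ABCC3 to 7.39 for ABCB1, with at least 6.40 for SLCO1B3. SLCO1B1 and SLCO2B1 had the same order of means, rising from D4 over D15 and D30 − DMSO to D34 ± DMSO and then to D30 + DMSO, and of the neighbours in this order only D4 and D15 were called apart. SLC22A9 was lowest at D4 and next lowest at D30 + DMSO, whereas ABCC2 was highest at D34 ± DMSO.

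The genes whose log2 levels were most like those of a member over the 20 arrays were, for SLCO1B1, SULT2A1 (r = 0.99) and ABCG8 (0.99), for SLCO2B1, GBA3 (1.00) and SERPINC1 (1.00), for SLC22A9, ABCA6 (0.99) and CYP4A11 (0.99), and for SLC22A7, ABCG5 (0.97) and CTRC (0.96). ABCB1 was nearest to SYVN1 (0.97) and CYP2C8 (0.96), SLCO1B3 to AGPAT4 (0.93) and AEN (0.92), ABCC3 to PAN2 (0.90) and LEPR (0.89), ABCC2 to FAM184A (0.89) and PHKA2 (0.88), and SLC22A3 to MTUS1 (0.87) and LRRK2 (0.86). These values describe likeness over arrays that share conditions. Among the members, r ran from -0.85 between SLCO1B3 and SLCO2B1 to 0.98 between SLCO1B1 and SLCO2B1. SLCO1B3 was well above background on 4 arrays at D4, 2 at D30 − DMSO, 1 at D34 ± DMSO and 0 at D15 and D30 + DMSO. Its r values thus rest largely on signals at or near background.

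The members were set beside 44 further drug and bile acid transporters, of which 29 passed the filter. Between D4 and D15, 12 of these were higher and 1 was lower, with a median log2 change of 0.27. SLC10A1, the bile acid uptake carrier NTCP, rose 34.7-fold (limma adjusted p = 7.35e-10), with 2 of 4 D4 arrays well above background. SLC28A1 (67.0-fold), SLC15A1 (at least 8.57-fold), SLC51B (3.56-fold), SLC22A10 (3.06-fold), SLC22A11 (at least 4.03-fold), SLCO4C1 (3.58-fold) and SLC51A were further carriers called higher. The exporters called higher were ABCB4 (5.46-fold), ABCC6 (2.60-fold) and ABCC11 (16.2-fold). At D4, SLC28A1 and ABCC11 were well above background on 1 of 4 arrays, SLC51B on 2 and SLCO4C1 on 3. SLC51A was so on 0 arrays at D4 and on 1 at D15, so no fold is given for it. SLC22A4 fell by 1.12 on the log2 scale. Beside the 1 member called on DMSO addition, 2 of the 29 rose, among them the extruder SLC47A1 (4.42-fold), and SLC29A1, a nucleoside carrier, fell by 1.85 on the log2 scale. On removal SLC47A1 and SLC29A1 turned back, with log2 changes of -1.32 and 2.12, SLC10A1 fell by 1.28 on the log2 scale, and SLC22A11 rose at least 3.73-fold. Against D30 − DMSO, SLC51B was lower at D34 ± DMSO (log2 change -2.03, limma adjusted p = 0.00358).

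**Figure D4:**
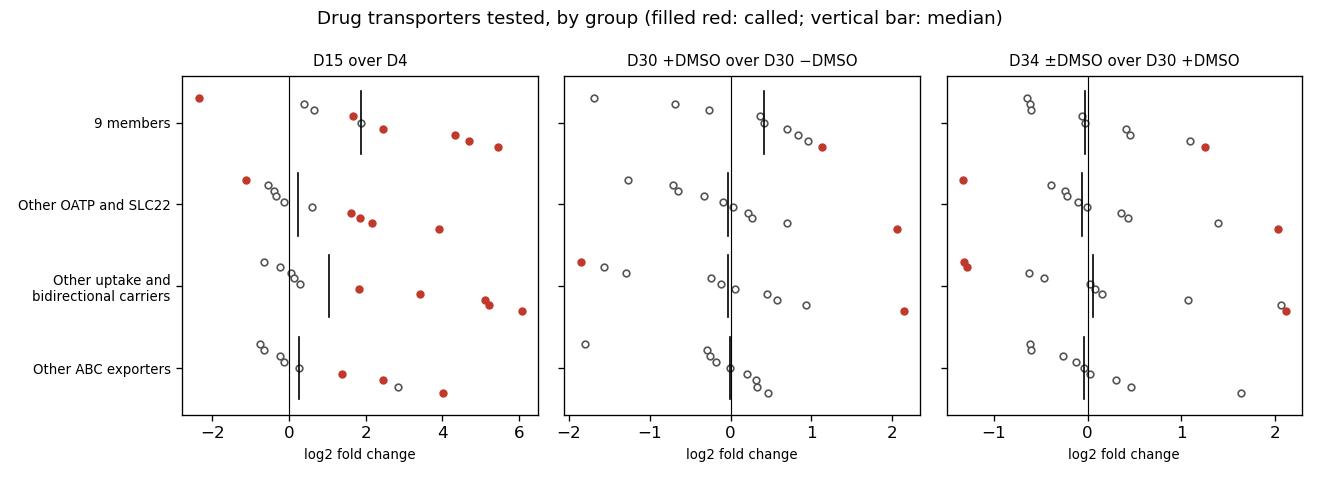
Log2 fold change of every tested drug transporter, the 9 members in the top row and 29 others below by class, for D15 over D4, DMSO addition and DMSO removal, where filled red points are called and the vertical bar is the median of the row. The member median is 1.88 for D15 over D4, 0.42 for DMSO addition and -0.03 for DMSO removal.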

How the data were processed

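RNA of HepaRG cells was measured on 20 one-color arrays. The authors deposited, for each array, the Feature Extraction output (version 10.7.1.1 in the file headers, 10.7.3.1 in the labels), whose processed signal is an intensity, background-subtracted within the array. Between 7.66% and 16.3% of spots were at or below 0. A matrix of baseline-relative log2 values, deposited by the authors too, matched the scaled log2 signals of probes well above background on all arrays (median difference 3.5e-07, array shift at most 0.0032). Flags of the deposited files, scored 0 or 1, gave detection, saturation and outlier spots. Outlier spots were left out unless all spots of a probe were flagged as such, and saturated spots were kept.

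Here, spots of a probe were averaged, each array was divided by its 75th percentile (283 to 530 intensity units), values under a floor of 1 intensity unit were raised to it, and log2 was taken. The filter kept 26538 of 42405 probes, those that the flags gave as well above background on every array of some condition, and a gene was read from its brightest kept probe. RefSeq accessions named 24826 probes. One linear model with 5 condition means was fitted over all arrays in R 4.3.3 with limma 3.58.1, with two-sided tests, at the thresholds of the study's methods. Where a condition had no detected array and the other was detected on every array, the printed fold is a lower limit. It was set by the dimmest detected signal of each array of the undetected condition. Tested on simulated data, the fit recovered between 79.5% and 84.5% of 200 genes changed 4-fold among 22221 over the 5 comparisons. The simulated noise was drawn independently for each array, without slide effects. Smaller changes, such as those near 2-fold, were not simulated, so the recovery of these is not known. The number of arrays limits the precision.

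Promoter letters were searched in RefSeq windows of GRCh38.p14, cut to the 250 bases before the start, for a full hepatocyte nuclear factor palindrome and its core GTTAAT, an HNF4 site (CAAAGTCCA), nuclear receptor repeats (DR3, DR4, ER6 and IR1), an antioxidant response element (TGACNNNGC) and TATAAA on both strands, and aligned with Biopython 1.88. GTTAAT lies within that palindrome, and only GTTAAT, CAAAGTCCA and TATAAA had a match in a member. The files' array design names the older build GRCh37, and no coordinates of it were used.

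The alternatives were quantile normalization, normexp correction with an offset of 50 followed by quantile normalization, the matrix values, other probe filters, every probe or the mean of the probes of a gene, a floor of 10, a block for the replicate number, the slide or the scan session, a fit of the compared arrays only, the methods' t-test and analysis of variance, an adjusted p below 0.05, and each array left out in turn. Leaving out slide 4, the second-probe alternatives, and the limits for undetected spots in overlaps and spans were added after seeing the data. The genes named are the 9 members, listed transporters that were called, listed regulators, and the 2 genes most like each member. Beside these, markers of cell types and cytochrome P450 targets from fixed lists are named as context, some of them chosen after their values were seen. Members and lists were chosen with earlier results of these data known. Some of the genes this rule names are not reported here.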

Additional observations from a re-analysis of the deposited data

Results flagged for a closer look

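In 4 of the 45 sets of 4 arrays (9 genes in 5 conditions), 1 array stood apart from the other 3 by Dixon's gap criterion for 4 values, and chance gives about 1 such set in 20. SLCO2B1 was low in replicate 4 of D30 − DMSO (2.11) and in replicate 4 of D34 ± DMSO (2.34). ABCC3 was high in D15 replicate 1 (4.50, brighter probe). ABCB1 was high in D15 replicate 4 (1.40, brighter probe). The 3 replicate 4 arrays lie on slide 4, and the part of the slide was not tested.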

How the results depend on the processing

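Of the counts of transporters called, that for D15 over D4 stayed between 4 and 6 with each array left out in turn, was 4 in the compared arrays only, with the methods' t-test and with the filter for all arrays (6 members tested), and was 5 to 8 in the other alternatives, and that for D30 − DMSO over D15 stayed at 0. For DMSO addition the count was 0 after quantile normalization, after normexp correction (here always followed by quantile normalization) and without slide 4, 3 at an adjusted p below 0.05, and 0 to 1 with each array left out. For DMSO removal it was 0 after quantile normalization, after normexp correction, with no filter, in the compared arrays only, with the methods' t-test and without slide 4, as with the filter for all arrays, where SLC22A9 was not tested, and 0 to 1 with each array left out. For D34 ± DMSO over D30 − DMSO it was 0 with no filter, in the compared arrays only, with the t-test and without slide 4, and 0 to 1 with each array left out. The F-test called 5 with the mean of all probes. The cause was not tested.

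Values near 0 changed sign, as did that of ABCC3 on addition, which was not near 0. SLC22A3 from D15 to D30 − DMSO was -0.041 after quantile normalization, -0.034 after normexp correction and -0.52 without slide 4, and -0.26 to 0.49 with each array left out. ABCC3 was -0.56 on addition and 0.63 on removal with the mean of its probes (limma adjusted p = 0.00244 and 0.000827). Its brighter probe alone gave 0.42 and -0.064, and its second probe gave -1.54 and 1.32. The brighter probe on removal gave 0.0096 without slide 4 and -0.22 to 0.13 with each array left out. SLC22A7 on removal was 0.0065 after quantile normalization and 0.084 with the mean of its probes, and -0.33 to 0.19 with each array left out. Also with each array left out, SLC22A3 on addition ran from -0.57 to 0.12, ABCC2 from D15 to D30 − DMSO from -0.0092 to 0.18, and ABCB1 from D30 − DMSO to D34 ± DMSO from -0.073 to 0.39 (-0.0044 without slide 4). For second probes, ABCC3 from D15 to D30 − DMSO ran from -0.031 to 0.098, ABCB1 over the same step from -0.27 to 0.0019, ABCB1 from D30 − DMSO to D34 ± DMSO from -0.15 to 0.17 (-0.011 without slide 4), and SLC22A7 on removal from -0.11 to 0.39.

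SLCO1B1 on addition rose by 1.08 after quantile normalization alone (limma adjusted p = 0.00549) and by 1.00, just under 2-fold, with normexp correction added, and was called in neither. With the replicate number as a block, the counts called were 6, 0, 1, 1 and 1 in the 5 comparisons and 3 in the F-test, and no call of a member changed. Deviations of same-numbered arrays correlated with r from -0.31 to 0.79, so the numbers alone do not pair the arrays. Signal limits SLCO1B3, SLC22A3 at D4, SLC22A9 at D4 and the second SLC22A7 probe at D4, which were at or near background there.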

Other observations

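Of 12 listed regulators of hepatic transporter and enzyme genes, 11 passed the filter. From D4 to D15, 7 were called higher, among them CEBPA (6.35-fold), HNF4A (at least 4.01-fold), NR1H4 (FXR, 10.6-fold), NR1I2 (PXR, 10.2-fold), NR1I3 (CAR, 8.08-fold) and NR0B2 (SHP, 13.5-fold), and VDR fell by 1.52 on the log2 scale. Of the 4 D4 arrays, 3 detected NR1I2 and 2 each detected NR1I3 and NR0B2. DMSO addition raised NR1I3 (5.36-fold) and NR0B2 (2.93-fold) and lowered VDR (log2 change -1.35), while NR1I2 did not pass (2.05-fold, limma adjusted p = 0.00906). On removal NR1I3 fell by 2.02 and NR0B2 fell by 2.78 on the log2 scale and VDR rose 2.21-fold.

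Cytochrome P450 genes known as PXR and CAR targets were measured beside the members. CYP2B6 rose 19.9-fold and CYP3A4 16.7-fold on addition, and on removal CYP2B6 fell by 5.04 and CYP3A4 fell by 6.50 on the log2 scale. CYP2C8 passed in neither comparison (limma adjusted p = 0.103 and 0.0506).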
